A study of Homo sapiens with 6 samples.

Results

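The 10 genes described here are stress and stimulus response genes read out in human nuclei of teratomas: 6 heat shock genes (HSPA1A, HSPA1B, HSP90AA1, HSPH1, DNAJB1 and HSPE1) and 4 immediate early genes (FOS, JUN, EGR1 and ATF3). They were chosen by symbol from the 38606 human features of the count matrices, and all 10 were present and passed the filter on low counts, as did 26552 human genes in all. H1, an established human embryonic stem cell line, was used in 3 forms that differ in the long non-coding RNA gene lncPRESS1: DATG, written ΔATG in the study's design text, which does not describe the sequence change; KO, the knockout; and WT. All 3 were mixed 1:1 in medium and matrigel and grown as teratomas, tumours that hold many tissue types, in the flank of immunodeficient NSG mice, so each tumour also held mouse host cells. Frozen tumours were taken apart into nuclei on an automated instrument, and RNA molecules were counted by unique molecular identifier (UMI) with droplet chemistry at the 3' end. There were 2 libraries per group, named here by group and replicate number (DATG 1, DATG 2, KO 1, KO 2, WT 1, WT 2). Nothing in the labels tells if both libraries of a group are from 1 tumour, 1 animal or 1 clone, and p-values therefore measure only the spread between these samples.

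Heat shock genes encode chaperones, proteins that hold or refold other proteins. The heat shock factor HSF1 binds heat shock elements in their promoters when unfolded proteins accumulate, and their RNA rises within minutes. Immediate early genes encode transcription factors that are switched on without new protein synthesis after growth factors, electrical activity or stress, largely through the factors SRF and CREB. Both programmes are also known to respond to the handling of tissue. How long each tumour was handled is not given in the labels, and its part in any value below was not tested.

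Across the 6 libraries WT 2 was the highest library for all 6 heat shock genes, and KO 2 was the highest for all 4 immediate early genes. None of the 10 passed a test between groups. The 4 promoters that follow are printed because they show the letters by which the 2 programmes are usually recognised. They also let HSPA1A and HSPA1B be compared, the heat shock genes with the widest range between libraries. Sequences are from RefSeq on GRCh38.p14, 5′ to 3′ on the strand of the gene, from 250 bases before the RefSeq start up to that start or up to the first base of an annotated exon. Capitals mark the heat shock inverted repeat GAANNTTC, the CRE half-site TGACGT or its reverse ACGTCA, the CArG box bound by SRF, and the CCAAT box on either strand (CCAAT or ATTGG).
HSPA1A, chr6:31815293-31815463, plus strand: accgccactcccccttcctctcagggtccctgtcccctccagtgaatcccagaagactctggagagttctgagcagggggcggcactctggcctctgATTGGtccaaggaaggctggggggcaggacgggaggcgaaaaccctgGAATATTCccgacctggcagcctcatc
HSPA1B, chr6:31827488-31827734, plus strand: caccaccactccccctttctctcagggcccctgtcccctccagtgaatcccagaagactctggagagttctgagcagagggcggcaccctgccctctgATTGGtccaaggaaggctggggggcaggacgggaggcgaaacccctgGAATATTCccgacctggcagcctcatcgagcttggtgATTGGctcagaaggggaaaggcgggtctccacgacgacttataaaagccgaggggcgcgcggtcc
DNAJB1, chr19:14518421-14518647, minus strand: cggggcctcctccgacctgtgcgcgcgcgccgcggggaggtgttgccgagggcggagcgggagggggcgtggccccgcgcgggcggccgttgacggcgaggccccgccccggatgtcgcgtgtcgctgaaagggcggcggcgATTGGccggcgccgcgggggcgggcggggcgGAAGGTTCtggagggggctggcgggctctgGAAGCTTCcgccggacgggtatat
EGR1, chr5:138465229-138465478, plus strand: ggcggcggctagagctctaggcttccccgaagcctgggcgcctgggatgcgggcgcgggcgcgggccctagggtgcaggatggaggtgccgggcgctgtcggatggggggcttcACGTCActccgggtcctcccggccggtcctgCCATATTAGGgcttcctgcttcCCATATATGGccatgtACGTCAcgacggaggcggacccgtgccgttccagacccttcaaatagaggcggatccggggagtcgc

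All 10 genes had at least 1 RefSeq start, 14 starts in all, and 250 bases before each were searched on both strands. The inverted repeat GAANNTTC or TTCNNGAA was found at 5 of the 14 starts, 1 each of HSPA1A, HSPA1B, HSP90AA1, DNAJB1 and JUN, and in 11.6% of all 35116 promoters of the same length. The CRE half-site was found at 2 of the starts, those of FOS and EGR1, and in 7.10% of all promoters, and the related TGANNTCA at 2, of JUN and ATF3, and in 10.1%. The CArG box was found at 1 start, that of EGR1, which has 2, and in 1.16% of all promoters. A CCAAT box was found at 8 starts of 6 genes and in 32.0% of all promoters. The windows of HSPA1A and HSPA1B were identical at 235 of 250 bases (94.0%) and shared the same GAATATTC. A match is a description of letters, and no binding was measured.

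The libraries held 35785812 to 47574535 UMIs, and 49204 human nuclei were kept, 5254 to 10932 per library, with medians of 2533 to 3960 UMIs. Pairs of libraries shared 4 to 33 cell barcodes. Mitochondrial RNA made up 0.512% and 0.526% of human UMIs in DATG, 0.167% and 0.115% in KO, and 0.172% and 0.0753% in WT. DATG 2 held 3649 barcodes of mixed species, left out here, against 513 to 1095 in the other libraries. Of 31 clusters, which were made without the 10 genes and their pathway genes, 24 carried enough markers to be named in 16 classes. One cluster of 2530 nuclei, called the shallow cluster, had a median of 760 to 1118 UMIs by library, against 2592 to 4333 in the other nuclei, and was left unnamed. It held 3.45% and 2.27% of nuclei in DATG, 4.27% and 4.23% in KO, and 9.67% and 7.46% in WT. Its mitochondrial share was 1.90% and 2.35% in DATG, 0.632% and 1.07% in KO, and 1.16% and 0.237% in WT.

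HSPA1A and HSPA1B encode the inducible form of HSP70, the chaperone most used as a sign of the heat shock response. Both lie on chromosome 6 of GRCh38, on the plus strand: HSPA1A (ENSG00000204389) at 31815464 to 31817946 and HSPA1B (ENSG00000204388) at 31827735 to 31830255, each with 1 exon in GENCODE 29. HSPA1A stood at 18.1 and 6.23 CPM (counts scaled to 1000000 human UMIs per library) in DATG, 28.2 and 28.2 CPM in KO, and 13.8 and 101 CPM in WT. WT 2 was 3.57-fold above the next library and 16.2-fold above DATG 2, so the WT libraries lay on either side of all others but DATG 2. HSPA1B stood at 4.70 and 9.91 CPM in DATG, 7.91 and 9.68 CPM in KO, and 4.06 and 26.8 CPM in WT. Here too WT 2 stood alone and WT 1 was the lowest.

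The other heat shock genes spread over a narrower range and also had WT 2 at the top. HSP90AA1 (ENSG00000080824, chromosome 14, 102080738 to 102139699, minus strand) encodes the inducible form of HSP90, which matures kinases and steroid receptors. It stood at 243 and 188 CPM in DATG, 272 and 235 CPM in KO, and 174 and 354 CPM in WT. HSPH1 (ENSG00000120694, chromosome 13, 31134974 to 31162388, minus strand), a nucleotide exchange factor of HSP70, stood at 35.4 and 41.0 CPM in DATG, 50.1 and 66.5 CPM in KO, and 32.7 and 80.5 CPM in WT. For both genes all other libraries fell between WT 1 and WT 2.

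DNAJB1 (ENSG00000132002, chromosome 19, 14514770 to 14529770, minus strand) encodes HSP40, which hands unfolded proteins to HSP70. It stood at 25.8 and 11.3 CPM in DATG, 50.1 and 37.9 CPM in KO, and 22.8 and 57.7 CPM in WT. HSPE1 (ENSG00000115541, chromosome 2, 197499994 to 197503457, plus strand) encodes HSP10, the lid of the mitochondrial chaperonin. It stood at 46.5 and 15.3 CPM in DATG, 58.2 and 39.0 CPM in KO, and 28.9 and 69.7 CPM in WT. DATG 2 was the lowest library for HSPA1A, DNAJB1 and HSPE1. HSPE1 overlaps its neighbour HSPD1 on the opposite strand and the readthrough gene HSPE1-MOB4 on its own, DNAJB1 overlaps TECR and HSP90AA1 overlaps WDR20 on the opposite strand, and since the strand setting of the counting is not stated, these levels are uncertain.

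FOS and JUN encode the partners of the AP-1 transcription factor. FOS (ENSG00000170345, chromosome 14, 75278774 to 75282230, plus strand) stood at 1.41 and 7.68 CPM in DATG, 3.85 and 11.9 CPM in KO, and 1.31 and 6.20 CPM in WT. Every replicate 2 library was above every replicate 1 library, and the labels do not tie these numbers to a batch. JUN (ENSG00000177606, chromosome 1, 58780788 to 58784327, minus strand) stood at 24.2 and 27.4 CPM in DATG, 29.1 and 36.4 CPM in KO, and 17.4 and 30.5 CPM in WT. Its range of 2.09-fold was among the smallest of the 10 genes, with that of HSP90AA1 (2.04-fold).

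EGR1 (ENSG00000120738, chromosome 5, 138465490 to 138469315, plus strand), a zinc-finger factor induced by growth factors and by activity in neurons, stood at 3.04 and 4.04 CPM in DATG, 5.16 and 21.3 CPM in KO, and 1.79 and 7.83 CPM in WT. KO 2 was 2.72-fold above the next library and 11.9-fold above the lowest. ATF3 (ENSG00000162772, chromosome 1, 212565334 to 212620777, plus strand), a factor induced by many stresses, stood at 5.40 and 10.9 CPM in DATG, 7.78 and 12.6 CPM in KO, and 6.01 and 11.5 CPM in WT. As for FOS, every replicate 2 of ATF3 was above every replicate 1, and within each group replicate 2 was the higher for all 4 immediate early genes.

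**Figure D1:**
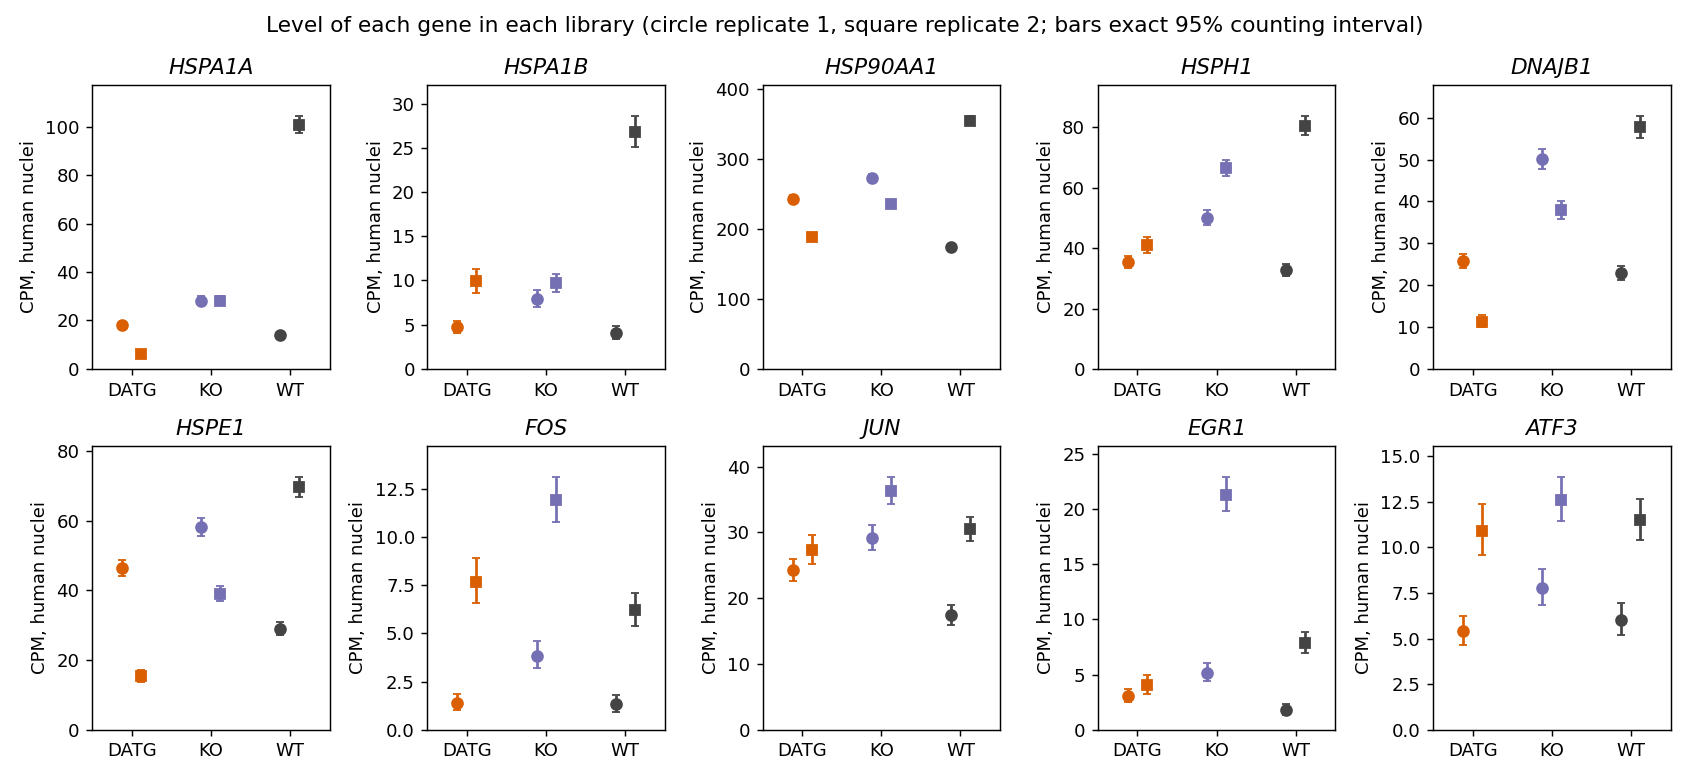
Each panel plots 1 gene, with its level in human nuclei (CPM) for the 2 libraries of DATG, KO and WT; circles are replicate 1, squares replicate 2, and bars the exact 95% counting interval. WT 2 is at the top in the 6 heat shock panels (HSPA1A at 101 CPM) and KO 2 in the 4 immediate early panels (EGR1 at 21.3 CPM).

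The spread between libraries was wider for these genes than for most genes of like level. The median ratio of the highest to the lowest library was 4.83 for the 10 genes and 1.78 for the 13896 tested genes whose mean lay between 5.39 and 244 CPM, the range of the 10, and all 10 were above that median. Between the DATG libraries the median absolute log2 ratio was 1.05 for the 10 genes and 0.48 for the 13896, between the KO libraries 0.41 and 0.21, and between the WT libraries 1.32 and 0.29. WT 2 was the highest library for 11.1% of the 13896 genes and KO 2 for 4.83%. WT 1 was the lowest library for 6 of the 10 genes and for 7.14% of the 13896. DATG 2 was the lowest for 3 of the 10 and for 41.7%, and DATG 1 for 1 of the 10 and for 15.5%.

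The level of these genes was set against the groups in 3 comparisons, on UMIs summed per library and fitted by edgeR's quasi-likelihood test over all genes with Benjamini-Hochberg adjustment. Of the 10 genes 0 were called in DATG vs KO, in DATG vs WT and in KO vs WT, where 0% of the 26552 genes were called in each. At an unadjusted p under 0.05 there were also 0 of the 10 in this fit, which has no replicate block, and 1615, 791 and 1229 of all genes in that order. DESeq2 called 0 of the 10 and 76, 90 and 151 of all genes.

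In DATG vs KO all 10 log2 fold changes were below 0, with a median of -0.52, against 0.03 over all genes, of which 52.1% were above 0. Both DATG libraries lay below both KO libraries for 5 of the 10 (HSPA1A, HSPH1, DNAJB1, JUN and EGR1), where 25.3% of all genes did so, and above them for 0 of the 10, where 15.8% did. The differences with the smallest p of the 10 were those of DNAJB1 (-1.14, SE 0.53, edgeR adjusted p = 0.676) and EGR1 (-1.80, SE 0.94, edgeR adjusted p = 0.676). EGR1 stood at -0.34 without KO 2. The signs of several genes rested on 1 library. On leaving out 1 library HSPA1B rose to 0.36, HSPE1 to 0.004, FOS to 0.49, JUN to 0.03 and ATF3 to 0.29. HSPA1A, HSP90AA1, HSPH1, DNAJB1 and EGR1 stayed below 0, with HSP90AA1 at -0.003 without DATG 2.

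In DATG vs WT the 6 heat shock genes were all below 0 (median -0.74, against 0.03 over all genes), and 3 of the 4 immediate early genes were above 0. HSPA1A averaged 12.2 ± 8.40 CPM in DATG and 57.3 ± 61.5 CPM in WT (SD, n = 2 each), a log2 fold change of -2.13 (SE 0.93, edgeR adjusted p = 1.00). Without WT 2 that value was -0.05. DNAJB1 differed by -1.002 (SE 0.53) and by -0.15 without WT 2. The other heat shock genes were above 0 without WT 2: HSPA1B at 1.05, HSP90AA1 at 0.48, HSPH1 at 0.41 and HSPE1 at 0.23. The libraries of DATG and WT overlapped for each of the 10 genes, where 6.91% of all genes had both DATG libraries above both WT libraries and 19.1% had them below.

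In KO vs WT the 4 immediate early genes were all above 0 (median 0.80, against 0.01 over all genes), and 2 of the 6 heat shock genes were. EGR1 averaged 13.2 ± 11.4 CPM in KO and 4.81 ± 4.27 CPM in WT (SD, n = 2 each), a log2 fold change of 1.51 (SE 0.93, edgeR adjusted p = 1.00), and 0.05 without KO 2. FOS averaged 7.88 ± 5.70 CPM in KO and 3.76 ± 3.46 CPM in WT, a log2 fold change of 1.11 (SE 1.12), and -0.02 without KO 2. JUN differed by 0.48 (SE 0.36), HSPA1A by -1.01 (SE 0.90) and HSP90AA1 by -0.04 (SE 0.36). HSPA1A stood at 1.08 without WT 2, and ATF3 at -0.21 without KO 2. The libraries of KO and WT overlapped for each of the 10 genes, where 19.6% of all genes had both KO libraries above both WT libraries and 24.3% had them below.

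**Figure D2:**
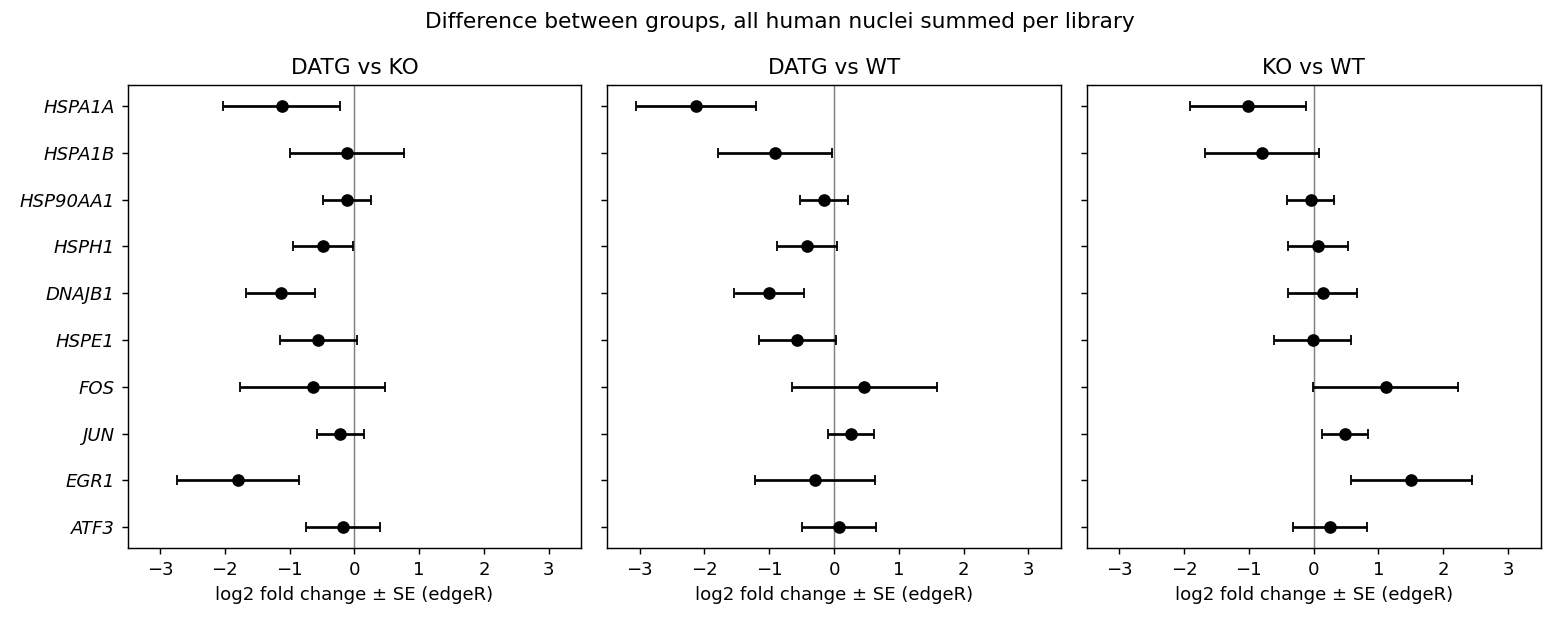
The log2 fold change of each gene (point) with its standard error (bar), from the edgeR fit to all 6 libraries, in DATG vs KO, DATG vs WT and KO vs WT. All 10 points lie below 0 in DATG vs KO, and the standard errors run from 0.36 for HSP90AA1 and JUN to 1.12 for FOS. In DATG vs KO the signs of HSPA1B, HSPE1, FOS, JUN and ATF3 did not hold when 1 library was left out.

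Levels also followed the depth of the nucleus, in every group. Summed over the 6 heat shock genes, nuclei of 500 to under 1000 UMIs held 790 and 506 CPM in DATG, 1241 and 1174 CPM in KO, and 725 and 1730 CPM in WT. Nuclei of 8000 or more UMIs held 401 and 254 CPM in DATG, 411 and 365 CPM in KO, and 252 and 518 CPM in WT. Over all nuclei the shallowest were above the deepest in 6 of 6 libraries for 8 of the genes, and in 5 of 6 for DNAJB1 and EGR1. The median ratio over libraries ran from 1.71 for DNAJB1 to 5.51 for FOS, and these per-gene values rest in part on the shallow cluster.

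The shallow cluster held part of these UMIs, 4.19% to 33.9% of HSPA1A's by library. With its nuclei left out, the sum of the heat shock genes at 500 to under 1000 UMIs was 583 and 371 CPM in DATG, 720 and 834 CPM in KO, and 503 and 922 CPM in WT, and the median ratio of shallowest to deepest was 1.77, against 2.95 with it. The sum of the immediate early genes had a median ratio of 1.88 without that cluster and 4.01 with it. Gene by gene the relation was then weaker: the shallowest nuclei were above the deepest in 3 of 6 libraries for FOS and DNAJB1, in 4 of 6 for HSPH1, in 5 of 6 for HSPA1A, JUN, EGR1 and ATF3, and in 6 of 6 for HSPA1B, HSP90AA1 and HSPE1. The median ratio of DNAJB1 was 1.06. That of FOS was 0.55 but tells no direction, since FOS stood at 0 CPM in the shallowest nuclei of DATG 1, KO 1 and WT 1. EGR1 in DATG 2 and ATF3 in KO 1 also stood at 0 CPM there. WT 2 stayed the highest library for HSPA1A in each of the 5 depth bins, with or without that cluster, and KO 2 for EGR1 and FOS. For the other genes the top library varied more with depth: over all nuclei the library with the highest level was at the top in 5 of 5 bins for HSPA1B and ATF3, in 4 for HSP90AA1, HSPH1, HSPE1 and JUN, and in 2 for DNAJB1, and without the cluster in 4 for HSPA1B and ATF3 and 3 for HSP90AA1. In the deepest nuclei DNAJB1 was highest in KO 1 (51.7 CPM, against 50.1 CPM in the next library) and JUN in DATG 2 (29.39 CPM, against 29.36 CPM in the next). At 8000 or more UMIs HSPA1A stood at 21.8 and 6.35 CPM in DATG, 19.6 and 23.7 CPM in KO, and 11.2 and 57.7 CPM in WT.

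**Figure D3:**
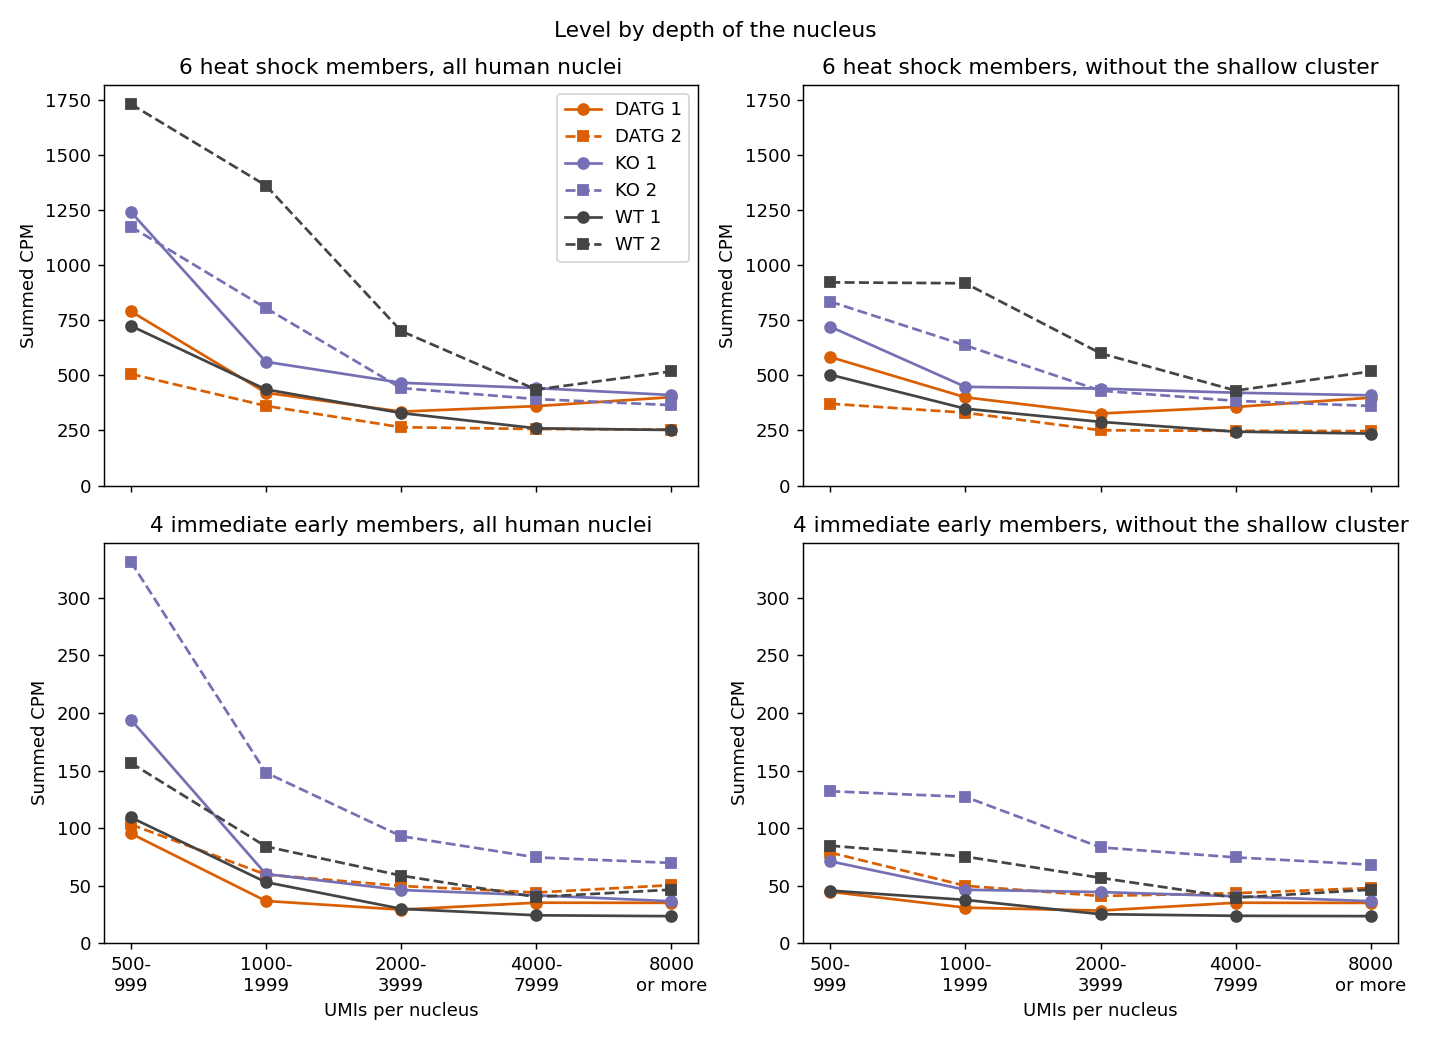
Summed level (CPM) of the 6 heat shock genes (top) and the 4 immediate early genes (bottom) by UMIs per nucleus, with 1 line per library, for all human nuclei (left) and without the shallow cluster (right). The shallowest nuclei lie above the deepest in each library, WT 2 starts at 1730 CPM in the upper left panel, and KO 2 starts at 332 CPM in the lower left panel.

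At 1000 UMIs per nucleus the share of human nuclei with a UMI had the same top library as the level for all 10 genes, and at 2000 UMIs for 9 of them, HSPE1 being highest in KO 1 (10.1%). Each nucleus was thinned to that number and shallower ones were left out, which at 1000 UMIs kept 4945 to 10077 nuclei in DATG, 6915 to 8751 in KO and 4680 to 9890 in WT. HSPA1A was then found in 1.61% and 0.601% of nuclei in DATG, 2.39% and 2.39% in KO, and 1.21% and 6.53% in WT. Without thinning these were 4.57% and 1.88% in DATG, 5.78% and 6.91% in KO, and 4.42% and 11.5% in WT. EGR1 was found at 1000 UMIs in 0.274% and 0.362% of nuclei in DATG, 0.500% and 1.85% in KO, and 0.216% and 0.821% in WT. HSP90AA1 was the most widely found, in 15.9% to 23.5% of nuclei at that depth.

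The UMIs were unevenly spread over nuclei. The 1% of nuclei with the most HSPA1A held 36.4% to 63.5% of its UMIs by library, and the like share for HSP90AA1 was 15.0% to 19.5%. Nuclei with an HSPA1A UMI also carried other heat shock genes more often than nuclei without one, in 6 of 6 libraries: HSPA1B in 5.45% to 29.1%, against 1.11% to 2.86%, and HSPH1 in 20.6% to 40.4%, against 8.76% to 16.2%. Nuclei with a FOS UMI carried EGR1 in 4.92% to 31.5%, against 0.751% to 5.51% of nuclei without one. Nuclei with HSPA1A were deeper than those without in 5 of 6 libraries, but not in WT 2, where their median was 2368 UMIs, against 2573 in nuclei without it, and where HSPA1B was found with it most often (29.1%). Depth was not made equal for these shares, which are descriptions.

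Mouse nuclei cannot make human RNA, so UMIs of human genes in them were taken as a measure of free human RNA in the droplets. Whether some were mouse reads counted to human genes, or came from droplets of both species, was not tested. Per 100 mouse nuclei there were 2.30 and 0.548 human HSPA1A UMIs in DATG, 1.05 and 3.09 in KO, and 1.98 and 4.32 in WT. Per 100 human nuclei there were 5.95 and 2.45 in DATG, 9.78 and 13.4 in KO, and 8.24 and 32.2 in WT. For HSP90AA1 mouse nuclei held 22.99 and 9.32 per 100 in DATG, 28.8 and 29.3 in KO, and 22.8 and 26.6 in WT, while human nuclei held 73.8 to 113. The mouse values are of 87 to 547 nuclei, and nuclei over 10% human were not counted as mouse, which limits them from above. Over the 6 libraries mouse nuclei held 4 UMIs counted to human FOS and 6 to human EGR1. Of the human UMIs in mouse nuclei HSPA1A made up 75.9 and 20.8 CPM in DATG. In KO it made up 55.8 and 115 CPM, and in WT 44.8 and 163 CPM. These values rest on 2 to 10 UMIs per library, and each was above that of the human nuclei. HSP90AA1 made up 354 to 1536 CPM there, also above the human nuclei in each library. HSPA1B, DNAJB1 and the immediate early genes had 0 such UMIs in some libraries. The part of free RNA in the levels was not tested.

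The classes were read to see whether a few cell types carried the pattern. In each of the 6 libraries the neural progenitor-like class was above the mesenchyme-like and the neuron-like class for all 6 heat shock genes. HSPA1A stood there at 27.7 and 18.9 CPM in DATG, 44.1 and 51.1 CPM in KO, and 23.7 and 240.5 CPM in WT. In the mesenchyme-like class it stood at 12.4 and 3.39 CPM in DATG, 13.7 and 12.7 CPM in KO, and 8.25 and 32.8 CPM in WT. The shallow cluster was higher still, at 53.5 and 85.2 CPM in DATG, 357 and 166 CPM in KO, and 238 and 1030.3 CPM in WT. It was the highest of the 5 classes with at least 50 nuclei in every library in 6 of 6 libraries for 9 of the genes, and in 5 of 6 for EGR1. ACTB and EEF1A1, genes of the cytoskeleton and of translation, were higher in the shallow cluster too, in 6 of 6 libraries: ACTB stood there at 1437 and 1412 CPM in DATG, 857 and 984 CPM in KO, and 762 and 821 CPM in WT. In the other human nuclei ACTB stood at 421 and 342 CPM in DATG, 226 and 197 CPM in KO, and 119 and 240 CPM in WT, and among the human UMIs found in mouse nuclei at 2012 and 1076 CPM in DATG, 1927 and 1733 CPM in KO, and 896 and 1604 CPM in WT. The part of depth, mitochondrial RNA and free RNA in the levels of the 10 genes there was not tested.

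WT 2 was the highest library for HSPA1A in 12 of 12 named classes with at least 50 nuclei in WT 2 and in at least 3 libraries, and for the sum of the 6 heat shock genes in 10 of 12. The exceptions were the gut epithelium-like and the smooth muscle and pericyte-like class. By gene WT 2 was the highest in 10 of 12 for HSPA1B and HSP90AA1, in 8 for HSPH1 and DNAJB1, and in 6 for HSPE1. KO 2 was the highest for EGR1 in 8 of 9 such classes and for FOS in 7 of 9, but for JUN and ATF3 in 4 of 9 each. In the shallow cluster DATG 2, not KO 2, was the highest for FOS, EGR1 and ATF3. In neural progenitor-like nuclei EGR1 stood at 1.05 and 5.67 CPM in DATG, 8.63 and 40.9 CPM in KO, and 3.14 and 4.68 CPM in WT. FOS and JUN were also high in epithelium-like nuclei, which had at least 50 nuclei in DATG 2 and WT 2 alone: FOS stood at 26.1 CPM in DATG 2 and 16.9 CPM in WT 2, and JUN at 83.2 CPM in DATG 2 and 48.5 CPM in WT 2.

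**Figure D4:**
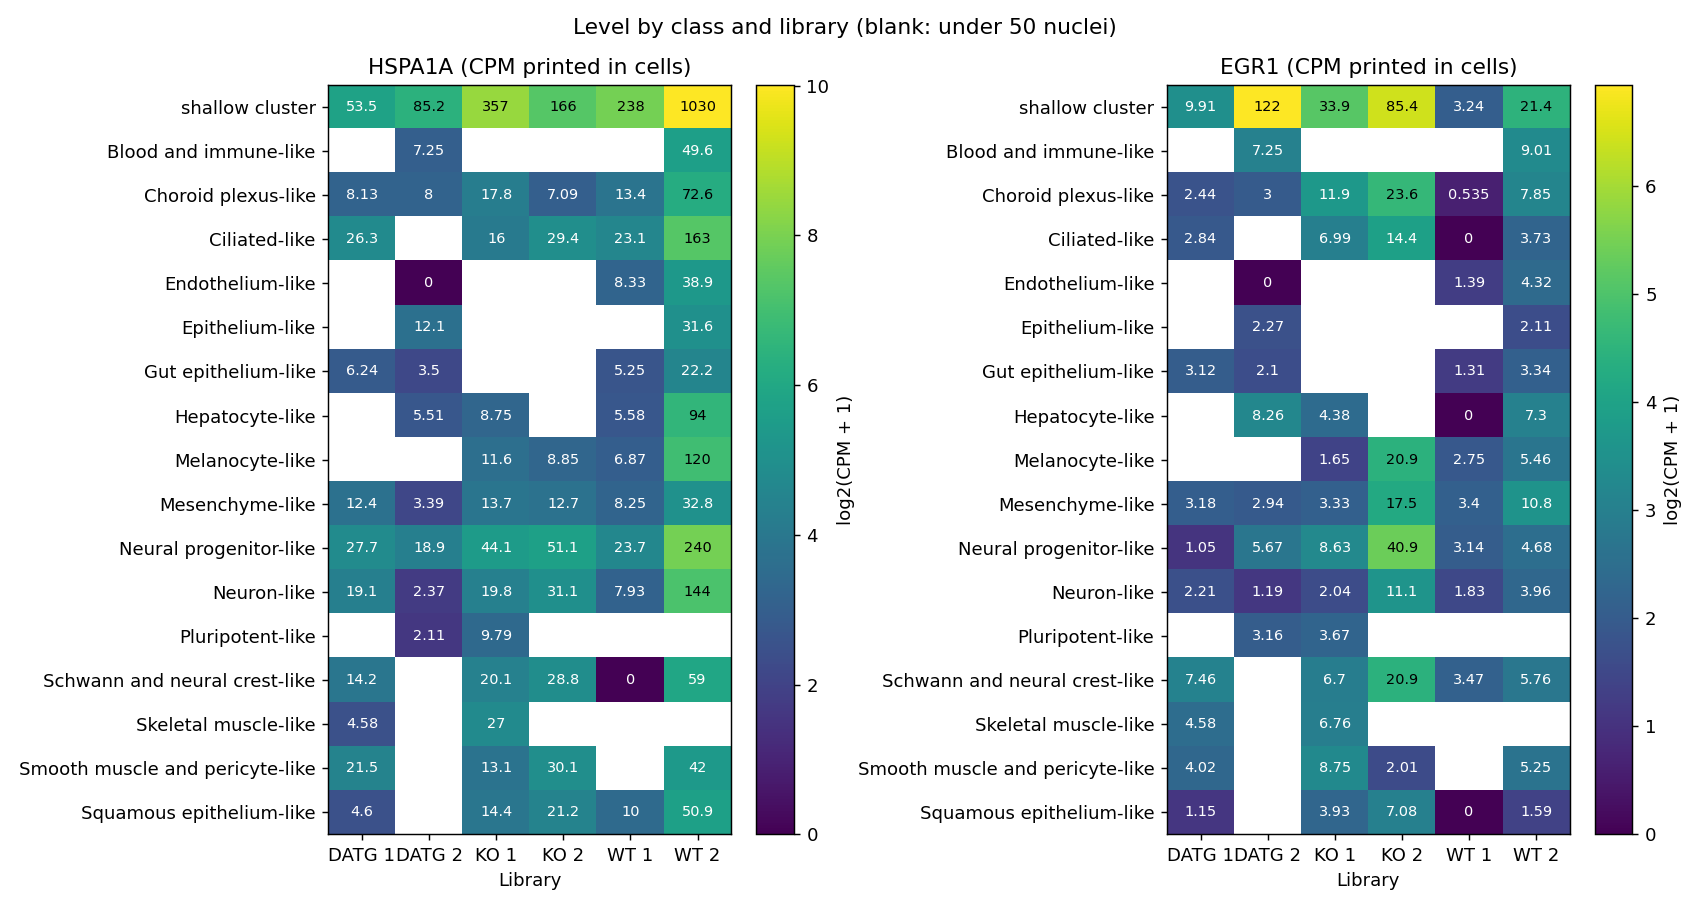
The level of HSPA1A (left) and EGR1 (right) in each class (rows) and library (columns, DATG, KO, WT), coloured by log2(CPM + 1) with the CPM printed in the cell; blank cells had under 50 nuclei. The WT 2 column is the brightest for HSPA1A in every named class that can be compared, and the KO 2 column for EGR1 in all but the smooth muscle and pericyte-like class.

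Within the 5 classes that had at least 50 nuclei in every library edgeR called 0 of the tested members in each of the 3 comparisons, where 0% of genes were called in the 4 named classes and 0.0093% in the shallow cluster in DATG vs KO and in DATG vs WT. The smallest unadjusted p was that of HSPA1A in the shallow cluster in DATG vs WT, with a log2 fold change of -3.27 (SE 0.80, edgeR adjusted p = 0.887). That cluster differed in makeup between the groups: its leading genes by fold were globins, and HBE1, an embryonic globin of red cell precursors, stood at 2972 and 2228 CPM in DATG, 0 and 7.11 CPM in KO, and 3.24 and 0 CPM in WT. HBG2, another globin, stood at 2153 and 292 CPM in DATG, was at 0 in both KO libraries, and stood at 0 and 22.4 CPM in WT. The part of this makeup in the HSPA1A difference was not tested. In neural progenitor-like nuclei EGR1 differed by -3.25 in DATG vs KO (SE 1.06, edgeR adjusted p = 0.989) and by 2.70 in KO vs WT (SE 0.89, edgeR adjusted p = 1.00). Those values rest on 3 and 6 EGR1 UMIs in DATG, 54 and 263 in KO, and 11 and 15 in WT, so KO 2 weighs most. The difference between classes in a comparison was tested with an interaction term, and 0 of the 10 passed. The smallest p was that of FOS in DATG vs WT (edgeR adjusted p = 0.738), and 0.0153% of genes passed in DATG vs KO, 0.0715% in DATG vs WT and 0.0460% in KO vs WT.

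The share of HSPA1A in the HSPA1A and HSPA1B pair set 1 library apart. HSPA1A made up 79.4% and 38.6% of the pair's UMIs in DATG, 78.1% and 74.4% in KO, and 77.3% and 79.0% in WT. The exact 95% interval of DATG 2 was 33.5% to 43.9% (137 HSPA1A and 218 HSPA1B UMIs), while the lowest bound of the other libraries was 72.0%. Without the shallow cluster DATG 2 stood at 38.7%, in mesenchyme-like nuclei at 45.5% (28.1% to 63.6%), and in neural progenitor-like nuclei at 51.3% (34.8% to 67.6%, 20 HSPA1A and 19 HSPA1B UMIs), where the next lowest library, KO 2, stood at 72.0% (67.6% to 76.1%). The longest annotated transcripts of the pair share 1684 windows of 91 bases, 70.4% of those in HSPA1A, but in the last 500 bases 59 of 410 HSPA1A windows and 0 of 410 HSPA1B windows. HSPA1B also overlaps an annotated gene on its own strand, AL671762.1. The treatment of reads that match more than 1 gene is not stated, so the split between the pair is uncertain.

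The mouse host nuclei went through the same preparation, and their own copies of these genes gave another reading. Egr1 stood at 36.7 and 22.8 CPM in DATG, 11.9 and 68.8 CPM in KO, and 16.2 and 17.1 CPM in WT. Fos stood at 19.7 and 10.7 CPM in DATG, 17.9 and 38.1 CPM in KO, and 9.02 and 10.7 CPM in WT. All 7 Fos UMIs of DATG 1 were in 1 nucleus, and WT 1 and WT 2 held 5 each. KO 2, the library highest for human EGR1 and FOS, was also highest for both mouse genes, with an Egr1 UMI in 47 and a Fos UMI in 33 of 324 nuclei, and it was highest for Atf3 (20.7 CPM, 25 UMIs). Jun did not follow this: it stood at 59.2 and 39.6 CPM in DATG, 95.2 and 81.2 CPM in KO, and 50.5 and 87.7 CPM in WT, while human JUN was highest in KO 2. Hspa1a had 24 and 8 UMIs in DATG, 1 and 8 in KO, and 0 and 0 in WT. For this gene the 139 mouse nuclei of WT 2 did not share the human HSPA1A level at this depth. Of the 24 UMIs in DATG 1, 1 nucleus held 23. Hsp90aa1 stood at 93.1 and 47.6 CPM in DATG, 91.2 and 73.7 CPM in KO, and 50.5 and 89.8 CPM in WT. In CPM WT 2 was above WT 1 for Hsp90aa1 (42 and 28 UMIs), Hspe1 (13 and 6) and Hsph1 (7 and 5) and below it for Dnajb1 (3 and 5). Hspa1b had 1 UMI in each. The exact 95% intervals of WT 1 and WT 2 overlapped for each of these genes, so the counts do not rank the 2 libraries. WT 2 was the highest library for none of the host heat shock genes. Of the 10 host genes 6 passed the filter on low counts and edgeR called 0 of them in each comparison, where 0% of the 8930 mouse genes were called in DATG vs KO, 0.0336% in DATG vs WT and 0% in KO vs WT. Fos in KO vs WT came nearest (log2 fold change 1.60, SE 0.65, edgeR adjusted p = 0.962).

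**Figure D5:**
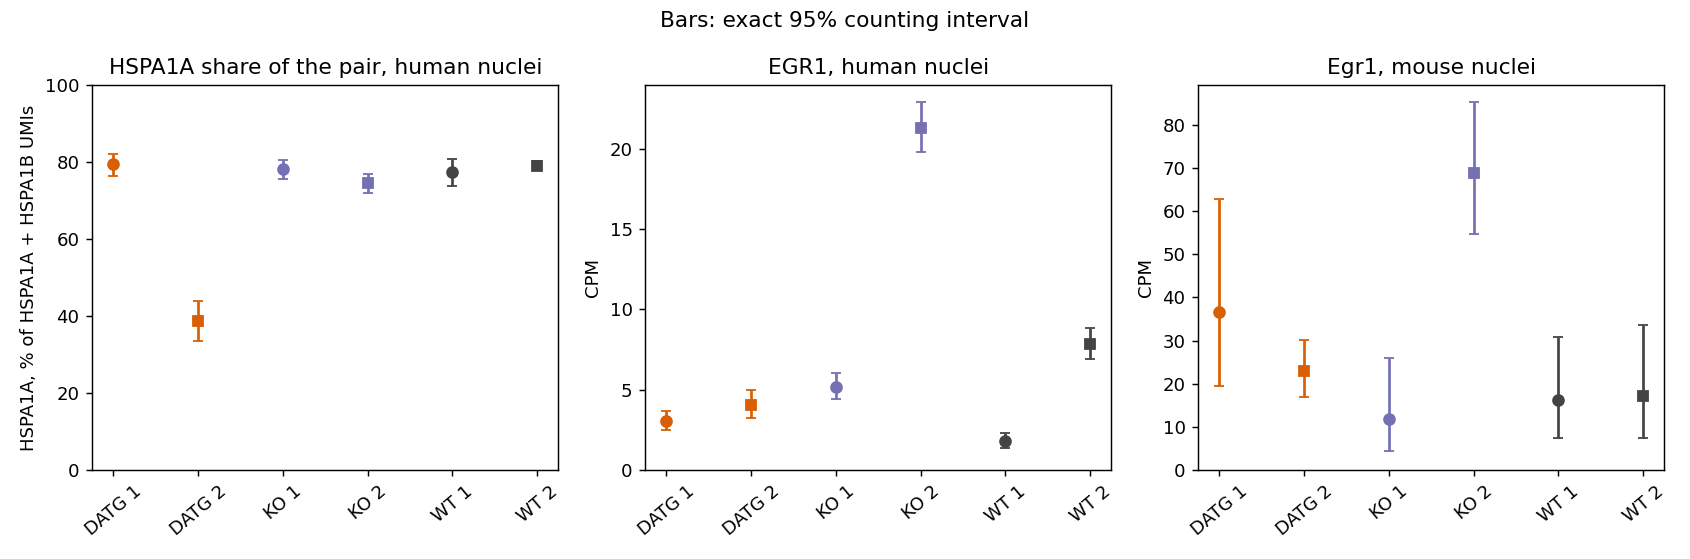
Left, HSPA1A as a percent of HSPA1A and HSPA1B UMIs; middle, EGR1 in human nuclei (CPM); right, Egr1 in mouse nuclei (CPM), each by library with the exact 95% counting interval. DATG 2 lies at 38.6% while the other libraries lie between 74.4% and 79.4%, and KO 2 is highest in both species, at 21.3 CPM and 68.8 CPM.

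The other genes of both pathways were read from a list of 76. Of the 75 tested, edgeR called 0 in each comparison, with 5, 1 and 0 at an unadjusted p under 0.05 in DATG vs KO, DATG vs WT and KO vs WT. Of the 30 other immediate early genes 16 were highest in KO 2 and 10 in DATG 2. KO 2 was the highest for 4.83% and DATG 2 for 22.9% of the 13896 tested genes in the level range of the 10. Some of the 30 lay below that range. EGR4, 1 of the 16, was not tested and stood at 0.143 CPM in KO 2 and at 0 in the others. FOSB, a partner of JUN, stood at 0.309 and 1.18 CPM in DATG, 0.938 and 12.2 CPM in KO, and 0.320 and 1.83 CPM in WT, and NR4A1, an orphan nuclear receptor, at 5.71 and 6.23 CPM in DATG, 8.35 and 20.5 CPM in KO, and 4.98 and 9.24 CPM in WT. Both were picked after their values were seen. In KO vs WT 23 of 29 tested genes of that list were above 0 (median 0.36, against 0.01 over all genes), and the smallest p was that of ARC, a neuronal activity gene (log2 fold change 2.23, SE 0.96, edgeR adjusted p = 1.00), followed by EGR3 (2.02), FOSL1 (1.79) and NR4A1 (1.07). ARC stood at 0.531 and 2.23 CPM in KO and 0.383 and 0.229 CPM in WT. EGR3 stood at 0.875 and 5.03 CPM in KO and 0.543 and 0.972 CPM in WT. FOSL1 stood at 1.25 and 7.74 CPM in KO and 1.12 and 1.60 CPM in WT. For EGR3, FOSL1 and NR4A1 KO 1 lay between the WT libraries, and KO 2 alone lay above them.

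The 29 other chaperones were spread over the libraries at the top: 9 were highest in DATG 1, 6 in DATG 2, 6 in KO 1, 0 in KO 2, 1 in WT 1 and 7 in WT 2. Of these 29 genes 19 were above 0 in DATG vs KO (median 0.16) and 18 in DATG vs WT (median 0.16), while all 6 heat shock genes were below 0 in both. The 2 comparisons share the DATG libraries. HSPA8, the HSP70 form made at all times, stood at 102 and 39.4 CPM in DATG, 67.3 and 53.5 CPM in KO, and 35.2 and 62.4 CPM in WT, and was picked after its values were seen. HSPA6, a strictly inducible HSP70, had the fourth smallest p in DATG vs WT (-2.49, SE 1.19, edgeR adjusted p = 1.00) and was highest in WT 2, at 5.43 CPM, against at most 1.74 CPM elsewhere. The gene of the heat shock factor HSF1 itself stood at 23.8 and 22.1 CPM in DATG, 26.8 and 28.0 CPM in KO, and 34.2 and 27.6 CPM in WT. In the integrated stress response list, to which ATF3 answers through ATF4, all 7 genes were above 0 in DATG vs KO (median 0.38). ATF4 stood at 54.4 and 118 CPM in DATG, 35.9 and 37.9 CPM in KO, and 57.1 and 54.8 CPM in WT, with a log2 fold change of 1.39 in DATG vs KO (SE 0.42, edgeR adjusted p = 0.676). SERPINH1, a collagen chaperone (1.48), DNAJC3 (1.02), a chaperone of the endoplasmic reticulum, and CHAC1 (1.33), a glutathione-degrading enzyme, came next in that comparison and did not pass either, and in DATG vs WT neither JUND, a JUN relative (1.15, edgeR adjusted p = 1.00), nor CHAC1 (1.14) or HSP90B1 (0.55) passed.

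Likeness to these genes was measured over 59 sums of library and class with at least 100 nuclei, on log2(CPM + 1) centred on the mean of each of 13 classes, over 8327 genes of at least 20 CPM. The genes most like the sum of the heat shock genes were CACYBP (Pearson r = 0.83), AASDH (0.77), ID1 (0.77), ORC4 (0.75) and ATP5MC3 (0.75). Those most like the sum of the immediate early genes were CRY1 (0.77), RAPGEF2 (0.77), YWHAZ (0.75), SAMD4A (0.72) and DUSP16 (0.70). The sums of the 2 programmes correlated with each other at r = 0.41. The sums used here and above are unweighted, so genes of high level count most. HSP90AA1 made up 354 of 689 CPM in WT 2 and 188 of 271 CPM in DATG 2. JUN made up 36.4 of 82.2 CPM in KO 2 and 24.2 of 34.1 CPM in DATG 1. The points of a library share its depth and preparation, so these are descriptions of 6 libraries.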

How the data were processed

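The values are UMI counts per gene and barcode that the authors deposited as filtered matrices of human and mouse genes. They were made with Cell Ranger 8.0.1 on GRCh38 and GRCm38, per the submitters' processing notes, while the file headers name 8.0.0; the settings for introns, strand and multiply placed reads were not given in the sources used here. Barcodes with at least 500 UMIs, 300 genes and 90% of UMIs from 1 species were kept, and the barcodes with the highest doublet score were removed at 0.8% per 1000 barcodes. Clustering used scanpy 1.11.5 without the 10 genes and their pathway list. Counts were summed per library, and per class with at least 50 nuclei in every library. They were tested by edgeR 4.0.16 (quasi-likelihood, TMM, all 6 libraries, adjusted p under 0.05, R 4.3.3), with DESeq2 1.42.0 as an alternative. Scripts were checked on simulated data. Shares have exact 95% intervals, which cover counting error only. Gene models are GENCODE 29.

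The 10 genes, the pathway list and the tests were chosen with earlier results of these data known. All 10 were named; of the pathway list, genes past the threshold or else the 4 with the smallest p in each comparison; of like genes, the 5 with the highest correlation. Alternatives were other scaling, no filter on low counts, a minimum of 1000 UMIs, kept doublets, 4 libraries, a replicate block and each library left out; leaving out the shallow cluster was chosen after seeing the data.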

Additional observations from a re-analysis of the deposited data

How the results depend on the processing

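Of the 10 genes 0 were called in any comparison over whole libraries, under each of the 14 alternatives. Of 420 alternative values of their log2 fold changes 382 stayed within 1 SE of the reported value and 38 moved further, and 9 of the 30 reported values kept their sign under all 14. Over all genes, DESeq2 called 76 in DATG vs KO, 90 in DATG vs WT and 151 in KO vs WT, and fitting only the 4 libraries compared gave 485 in KO vs WT. Leaving out 1 library gave 0 to 6613 in DATG vs KO, 0 to 2354 in DATG vs WT and 0 to 677 in KO vs WT. Without DATG 1 the counts were 6613, 2354 and 677, and without DATG 2 they were 3, 105 and 619, in that order; the cause was not tested. Of the pathway list 0 to 5 were called in DATG vs KO and 0 to 3 in DATG vs WT on leaving out 1 library, the highest without DATG 1. In that fit 6613 and 2354 of all 27650 tested genes were called, a larger share than in the pathway list. The fit leaves 1 library in DATG, so these counts are not read as a pathway effect.

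Within classes, testing without the filter on low counts called 1 in DATG vs KO (HSPA1A), 2 in DATG vs WT (HSPA1A and DNAJB1) and 1 in KO vs WT (FOS), all in the shallow cluster. Over all genes that fit called 42, 48 and 20 of 26781 there, in the same order. Calls within classes also changed on leaving out 1 library. Those fits leave 1 library in a group, so their calls are not listed here. Of the host genes 2 were called in DATG vs WT without the filter (Hspa1a and Hspa1b). In DATG 1, 1 nucleus held 23 of the 24 Hspa1a UMIs and 1 nucleus held 26 of the 30 Hspa1b UMIs. The share of all mouse genes called without the filter is not given here. The difference between replicates, over all genes, correlated at 0.34 for DATG and KO, -0.15 for DATG and WT, and 0.09 for KO and WT. These values cover all genes together and do not settle whether replicate numbers pair the samples. FOS, JUN, EGR1 and ATF3 were each higher in replicate 2 in every group. With the replicate number as a block 0 genes were called in each comparison over whole libraries. Under that block FOS and EGR1 in KO vs WT (edgeR adjusted p = 0.821 and 0.837) and EGR1 in DATG vs KO (edgeR adjusted p = 0.606) were under an unadjusted p of 0.05. With 2 libraries per group, differences under the spread shown were not detectable.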
